A study of Mus musculus with 20 samples.

Results

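The 10 genes described here encode the heavy chains of major histocompatibility complex (MHC) class I molecules, named H2 genes in the mouse, and their shared light chain. They were taken by symbol from the 25444 gene loci of a liver RNA-seq series, and each symbol had 1 locus. The members are the classical heavy chains H2-K1 and H2-D1, the nonclassical heavy chains H2-Q1, H2-Q2, H2-Q4, H2-Q10, H2-T22, H2-T23 and H2-M3, and the light chain beta-2 microglobulin, B2m. Livers came from 20 mice aged 20 weeks, with 5 females (F) and 5 males (M) of C57BL/6N (B6) and 5 females and 5 males of C3H/HeN (C3). All were inbred mice from Taconic Farms, housed singly, and the labels name no treatment or altered gene. Since each sex was kept in a room of its own, a difference between the sexes and one between the rooms cannot be told apart. RNA was taken from the left lateral lobe, freed of ribosomal RNA and sequenced in 3 pools of 8, 5 and 7 libraries, with 1 or 2 livers of each group in each pool.

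A class I molecule is a heavy chain that holds a peptide from inside the cell, joined to beta-2 microglobulin, and shows that peptide to CD8 T cells and natural killer cells. Classical heavy chains are made by nearly all nucleated cells and vary greatly between strains, while nonclassical ones vary less and have narrower roles. H2-Q10 is known as a secreted heavy chain made mainly by the liver, H2-T23 encodes the heavy chain of Qa-1, which is read by CD94/NKG2A receptors, and H2-M3 presents peptides with a formylated end. The heavy chain genes lie together on chromosome 17, and B2m lies on chromosome 2. C57BL/6 mice carry the H-2b haplotype and C3H mice the H-2k haplotype, and the number and the sequence of the Q and T genes differ between haplotypes. The authors aligned all reads to mm9, a C57BL/6J genome. For C3 livers a lower level of an RNA and a loss of reads that differ from the reference therefore cannot be told apart. A higher level and a gain of reads from other H-2k class I genes cannot be told apart either.

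Total counts per library ran from 27370921 to 46835745 read pairs, lowest in pool 2 and highest in pool 3. Of the 8 hepatocyte markers listed, all were present, with a summed level of 82264 to 176802 TPM (counts per length scaled to a common total). No listed marker of hepatocytes, leukocytes, Kupffer cells or sinusoidal endothelium was at 0 in every library. In bulk liver, fewer cells of a type and less RNA per cell cannot be told apart.

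The heavy chain genes are near copies of each other, which bears on how their reads are assigned. The first 90 bases of the exon that encodes the alpha-1 domain, a side of the peptide groove, are given from the mm9 genome to let the copies be compared. They begin at the second exon of each gene, run from 5′ to 3′ on the coding strand, and capitals mark bases that differ from H2-K1.
H2-K1, chr17:34136859-34136948, minus strand: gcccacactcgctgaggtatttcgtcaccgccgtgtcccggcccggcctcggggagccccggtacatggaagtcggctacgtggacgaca
H2-D1, chr17:35400324-35400413, plus strand: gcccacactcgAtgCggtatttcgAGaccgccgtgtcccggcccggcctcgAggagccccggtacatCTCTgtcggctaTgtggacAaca
H2-Q1, chr17:35457766-35457855, plus strand: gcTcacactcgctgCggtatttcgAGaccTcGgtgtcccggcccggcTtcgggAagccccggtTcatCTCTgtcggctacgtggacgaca
H2-Q2, chr17:35479545-35479634, plus strand: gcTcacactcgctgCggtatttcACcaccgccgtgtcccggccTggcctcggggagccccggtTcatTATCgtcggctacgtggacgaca
H2-Q4, chr17:35516849-35516938, plus strand: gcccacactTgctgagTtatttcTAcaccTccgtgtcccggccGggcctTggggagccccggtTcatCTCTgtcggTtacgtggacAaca
H2-Q10, chr17:35607321-35607410, plus strand: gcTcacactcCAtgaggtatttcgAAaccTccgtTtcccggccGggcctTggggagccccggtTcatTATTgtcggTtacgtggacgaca
H2-T23, chr17:36169278-36169367, minus strand: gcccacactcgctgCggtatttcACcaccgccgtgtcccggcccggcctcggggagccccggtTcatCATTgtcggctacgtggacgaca
H2-M3, chr17:37407467-37407556, plus strand: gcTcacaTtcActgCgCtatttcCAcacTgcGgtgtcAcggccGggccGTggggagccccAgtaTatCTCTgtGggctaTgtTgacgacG

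Over the whole exon of 270 bases, 91.5% of the bases of H2-Q4 and 91.1% of those of H2-D1 were identical to H2-K1. The identity was 88.5% for H2-Q10, 87.8% for H2-Q1, 87.4% for H2-Q2 and 86.7% for H2-T23. H2-M3 stood apart at 69.6%, and the exon of H2-T22, at 261 bases, was not compared. Despite these identities, few stretches as long as a read recurred. Of all windows of 125 bases within the annotated exons, the share found more than 1 time in the reference genome was 0.252% for H2-K1, 4.01% for H2-D1 and 3.22% for H2-T23. It was 6.81% for H2-Q1, 5.98% for H2-Q2, 8.23% for H2-Q4 and 10.8% for H2-Q10. H2-M3 and B2m held no repeated window. Read pairs that mapped to several places were not counted by the authors, so these shares describe which parts of each gene could lose reads in the reference itself. The H-2k sequences were not analysed here.

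Overlapping loci were a further limit, since pairs that overlapped several genes were not counted either. H2-D1 (chr17:35400039-35404442, plus strand) lay within the spans of H2-L and LOC547349 over 99.3% of its length, and H2-Q1 (chr17:35457503-35462044, plus strand) lay within that of LOC547349 over its whole length. H2-L held 0 to 1 count per library and LOC547349 0 to 13 counts. The GENCODE models name the H2-Q1 locus H2-Q2, so the symbols of these genes depend on the annotation. H2-T22 (chr17:36175354-36179647, minus strand) overlapped H2-T9 over 99.8% of its length. H2-T9 had 0 counts in all libraries, and H2-T22 had 2 counts in 1 B6 female and 0 in the other 19 livers. Its level was not measurable here, as 3 counts correspond to between 0.0641 and 0.110 CPM (a gene's counts scaled to a fixed library total), and it was not tested. The spans of H2-K1, H2-Q2, H2-Q4, H2-Q10, H2-T23, H2-M3 and B2m overlapped no other locus on the same strand.

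To order the genes, levels were compared per length, as TPM. B2m was the highest in mean, at 8547 ± 5421 TPM in B6 females (SD, n = 5) and 7995 ± 5143 in the males of that strain, against 6671 ± 4033 and 7248 ± 3290 in C3 females and males. The secreted heavy chain H2-Q10 followed at 2201 ± 211, 2673 ± 320, 2827 ± 217 and 2777 ± 140 TPM in the same order of groups. H2-K1 came next at 1499 ± 84.0, 1190 ± 188, 889 ± 94.8 and 775 ± 94.8 TPM. In each group the H2-Q10 and H2-K1 ranges did not overlap, whereas those of B2m and H2-Q10 overlapped in all groups but B6 females.

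H2-T23 lay next with group means from 184 to 322 TPM, and H2-D1 with means from 70.0 to 196 TPM. These neighbors overlapped in each group except C3 females, where the lowest H2-T23 value was 186 TPM and the highest H2-D1 value 181 TPM. The rest of the order differed between the strains. In B6 it was H2-Q4 (16.9 to 29.9 TPM), H2-Q1 (4.29 to 7.23), H2-M3 (3.71 to 5.83) and H2-Q2 (0.210 to 0.364), and in C3 it was H2-Q4 (59.6 to 78.9), H2-Q1 (32.3 to 73.8), H2-Q2 (7.78 to 10.7) and H2-M3 (3.07 to 4.65). H2-Q1 overlapped H2-M3 in B6, and H2-Q2 overlapped H2-M3 in C3.

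**Figure D1:**
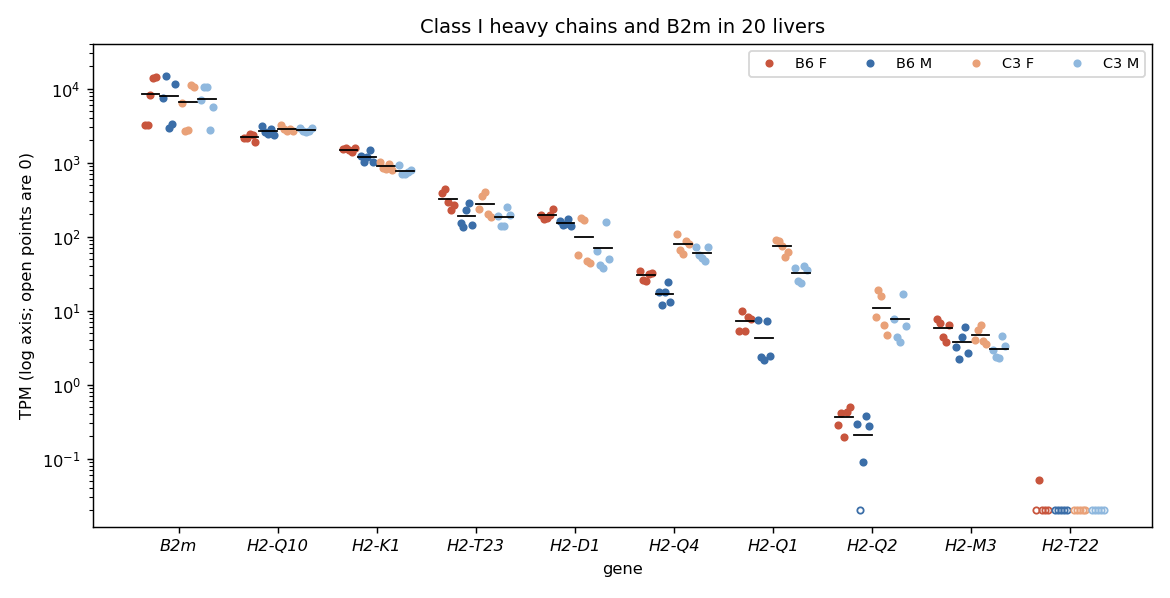
TPM (log axis) of the 10 genes, with 1 point per liver, colored by group, and a line at each group mean. Open points mark values of 0. H2-Q10 and H2-K1 lie above every other heavy chain in each group, and H2-Q1, H2-Q2 and H2-Q4 lie higher in C3 than in B6.

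The summed level of the 9 heavy chain members, which leaves out other class I genes, was similar between groups. The sum over the 9 heavy chains was 4260 ± 143 TPM in females and 4228 ± 495 in males of B6, and 4259 ± 325 and 3908 ± 275 in those of C3. In the 4 strain and sex comparisons, ratios of group means ran from 0.924 (C3 males over B6 males) to 1.09 (C3 females over C3 males), and all group ranges overlapped. By pool the sum averaged 3884 ± 231, 4435 ± 294 and 4290 ± 258 TPM in pools 1, 2 and 3 (SD). Its makeup differed more. H2-Q10 accounted for 51.6% ± 3.96 of the sum in females and 63.3% ± 3.56 in males of B6, and for 66.4% ± 2.46 and 71.2% ± 2.41 in those of C3. H2-K1 accounted for 35.2% ± 2.61, 28.1% ± 2.20, 20.9% ± 1.46 and 19.8% ± 1.21 in the same order, and its B6 and C3 ranges did not overlap within either sex. H2-D1 never made up more than 5.75% of the sum.

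**Figure D2:**
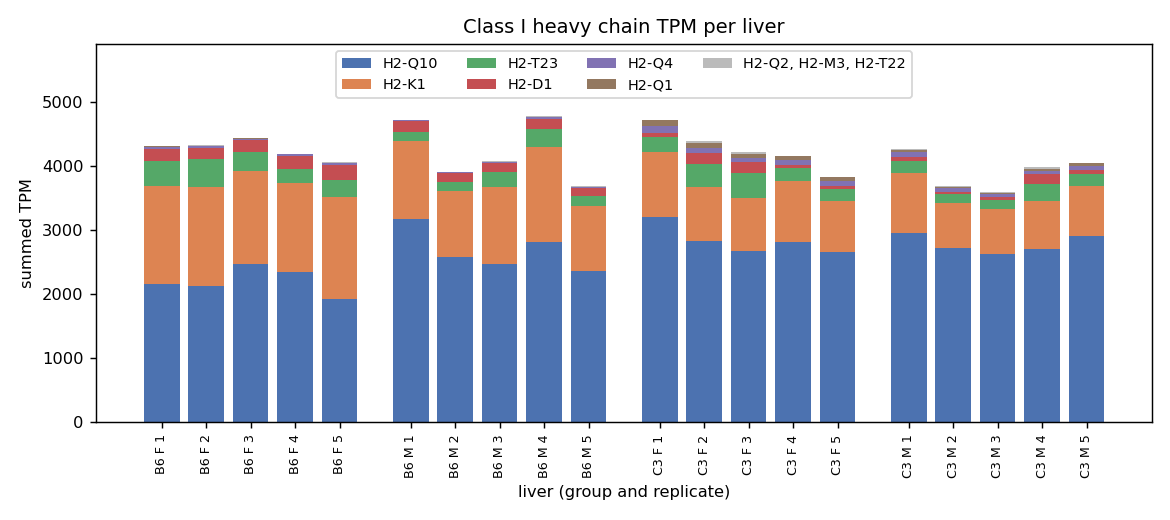
Summed TPM of the heavy chains in each of the 20 livers, with 1 bar per liver, grouped by strain and sex, and split by gene. Each sum lies between 3585 and 4774 TPM, with H2-Q10 as the largest part in each bar and the H2-K1 part larger in B6 than in C3.

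To compare the strains, C3 livers were set against B6 livers within each sex. Among females, 4 of the 9 genes tested were called, which required an adjusted p under 0.001 and a log2 fold change above 0.5 in either direction by edgeR. H2-Q1, H2-Q2 and H2-Q4 were higher in C3 and H2-K1 was lower. Of the 13704 genes tested, 4.63% were called higher and 4.77% lower. Among males the same 4 genes were called in the same directions, where 4.09% of all genes were called higher and 5.55% lower. The median log2 fold change of the 9 genes was -0.18 in females and 0.08 in males, beside 0.02 and 0.01 for all genes.

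**Figure D3:**
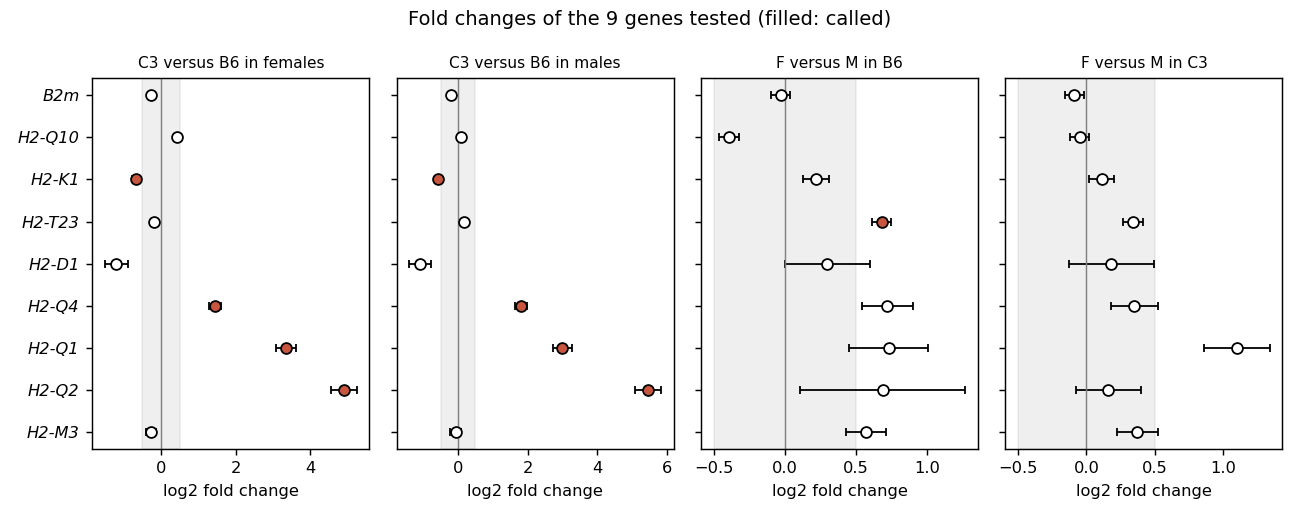
Log2 fold changes (x axis) of the 9 genes tested in the strain and sex comparisons, with bars of 1 standard error. Filled points were called, and the grey band spans changes within 0.5 of 0. H2-Q2, H2-Q1 and H2-Q4 lie to the right and H2-K1 to the left in both strain panels, while only H2-T23 in B6 is filled in the sex panels.

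H2-K1 (chr17:34132957-34137278, minus strand) encodes the classical heavy chain H-2K. In B6 females it measured 1104, 1122, 1118, 1060 and 1164 normalized CPM (CPM after scaling by the trimmed mean of M-values, TMM), and in C3 females 801, 645, 623, 783 and 623. In males it measured 984, 840, 979, 1146 and 833 in B6 and 793, 592, 602, 635 and 657 in C3. Each C3 liver was lower than each B6 liver of the same sex. The log2 fold change was -0.68 (SE 0.09, adjusted p = 8.3e-06) in females and -0.57 (SE 0.09, adjusted p = 7.8e-05) in males. The C3 to B6 fold was under 1 in each pool, at 0.629, 0.717 and 0.570 in females and 0.713, 0.733 and 0.600 in males for pools 1, 2 and 3. The H2-K1 call was lost in these subsets, with log2 fold changes of -0.61 (adjusted p = 0.001) and -0.44 (adjusted p = 0.00499) in females and males of pools 1 and 2, and -0.83 (adjusted p = 0.00597) and -0.76 (adjusted p = 0.0281) in those of pool 3.

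H2-Q1 was far higher in C3. Its B6 females measured 4.74, 8.77, 4.96, 7.67 and 6.86 normalized CPM and its C3 females 87.6, 81.9, 70.4, 53.9 and 58.5. B6 males measured 7.31, 2.39, 2.16, 6.81 and 2.42 and C3 males 39.7, 25.8, 24.8, 41.4 and 36.1. The lowest C3 liver exceeded the highest B6 liver of either sex. The log2 fold change was 3.36 in females (SE 0.27, adjusted p = 1.3e-08), and in males the change was 7.97-fold (log2 2.99, SE 0.27, adjusted p = 8.5e-08).

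H2-Q2 (chr17:35479278-35482667, plus strand) was almost undetected in B6 and low in C3. The 10 B6 livers held 0 to 10 counts each, or 0 to 0.245 normalized CPM. C3 females measured 4.33, 9.49, 7.88, 3.51 and 2.40 normalized CPM and C3 males 4.41, 2.48, 2.13, 9.50 and 3.46. The strains did not overlap, and the C3 values fell into higher and lower ones by pool. The change was 30.2-fold in females (log2 4.91, SE 0.34, adjusted p = 2.2e-09) and 43.6-fold in males (log2 5.45, SE 0.38, adjusted p = 2.2e-09), each against B6 counts of 10 or fewer. Within pools the fold varied widely, at 12.6, 42.8 and 52.0 in females for pools 1, 2 and 3, and at 24.4 and 96.6 in males for pools 2 and 3. With pools 1 and 2 alone the log2 fold change was 4.07 (adjusted p = 1.3e-05) in females and 4.76 (adjusted p = 6.2e-06) in males.

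H2-Q4 (chr17:35516562-35521619, plus strand), a nonclassical heavy chain, showed a smaller difference in the same direction. B6 females measured 27.2, 20.6, 21.3, 26.4 and 25.3 normalized CPM and C3 females 91.2, 53.8, 48.1, 77.3 and 66.3. B6 males measured 15.6, 10.495, 15.8, 20.2 and 11.7 and C3 males 66.2, 51.8, 48.0, 42.5 and 66.1. No C3 liver overlapped B6. The change was 2.73-fold in females (log2 1.45, SE 0.17, adjusted p = 2.7e-06) and 3.51-fold in males (log2 1.81, SE 0.18, adjusted p = 2.9e-07), and it exceeded 2-fold within every pool, from 2.15 to 4.50.

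**Figure D4:**
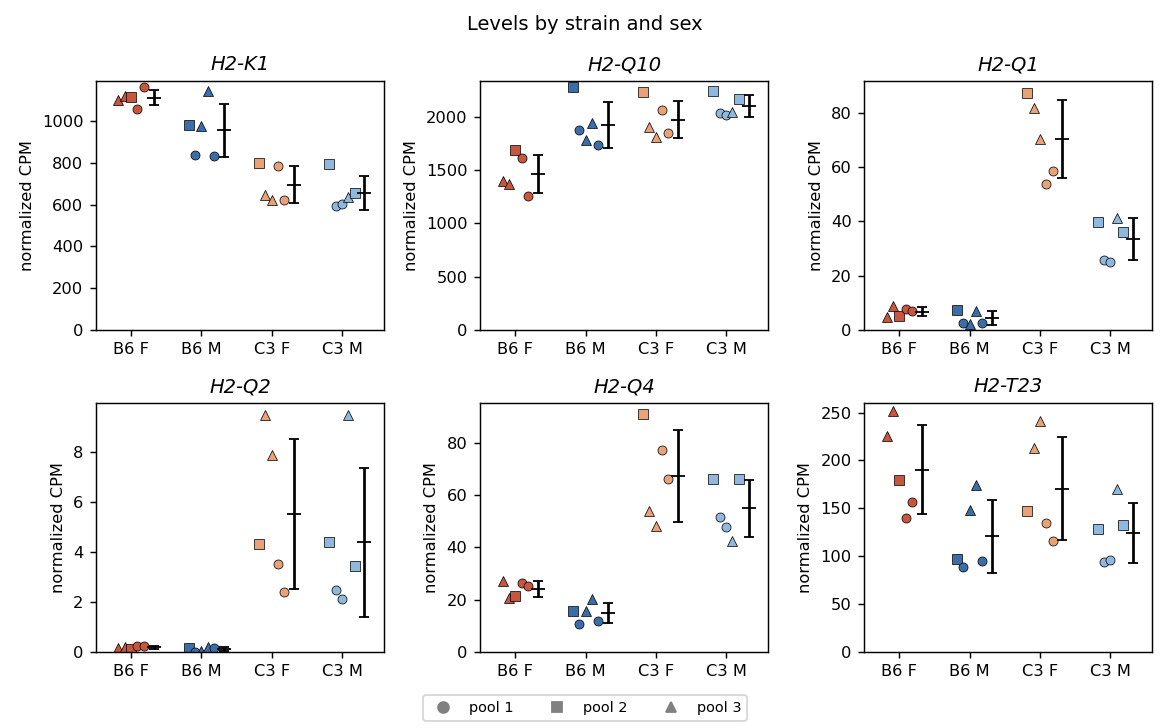
Normalized CPM (y axes from 0) of 6 heavy chain genes in each liver by group, with marker shape giving the sequencing pool and black bars the mean ± SD of 5 livers. H2-K1 lies lower and H2-Q1, H2-Q2 and H2-Q4 higher in C3, H2-Q10 lies lowest in B6 females, and the pool 3 livers are the highest for H2-Q2 in C3.

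H2-Q10 (chr17:35607034-35611508, plus strand) differed by strain among females but by less than the threshold. B6 females measured 1403, 1369, 1689, 1618 and 1258 normalized CPM, and C3 females 2233, 1905, 1816, 2071 and 1848. These ranges did not overlap, and the log2 fold change was 0.43 (SE 0.07, adjusted p = 5.2e-05). Males measured 2288, 1882, 1787, 1943 and 1736 in B6 and 2247, 2039, 2015, 2046 and 2171 in C3. They overlapped, with a log2 fold change of 0.08 (SE 0.07, adjusted p = 0.345).

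H2-T23, H2-M3 and B2m were not called between strains. For H2-T23 (chr17:36166922-36169646, minus strand) the log2 fold change was -0.18 (SE 0.07, adjusted p = 0.0581) in females and 0.16 (SE 0.07, adjusted p = 0.0928) in males. For H2-M3 (chr17:37407179-37411430, plus strand) it was -0.27 (SE 0.14, adjusted p = 0.151) and -0.07 (SE 0.15, adjusted p = 0.766). B2m (chr2:121973423-121978818, plus strand) had log2 fold changes of -0.26 (SE 0.07, adjusted p = 0.0111) and -0.20 (SE 0.07, adjusted p = 0.0439). The groups overlapped for each of these 3 genes.

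H2-D1, the classical heavy chain H-2D, gave no single strain difference, because its C3 level depended on the sequencing pool. B6 females measured 150, 133, 145, 159 and 180 normalized CPM and B6 males 137, 123, 125, 139 and 119. C3 females measured 47.2, 144, 136, 40.1 and 35.8, and C3 males 57.6, 36.6, 33.6, 141 and 43.6. The 3 high C3 livers were those of pool 3, and they lay within the B6 range, while the 7 others lay below every B6 liver. With all pools together the log2 fold change was -1.20 (SE 0.31, adjusted p = 0.00632) in females and -1.09 (SE 0.31, adjusted p = 0.0106) in males, neither past the threshold.

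Pools were therefore compared within each strain, a comparison chosen after these values were seen. By pool, C3 livers held 33.6 to 40.1 normalized CPM of H2-D1 in pool 1, 43.6 to 57.6 in pool 2 and 136 to 144 in pool 3, where B6 livers held 119 to 180, 137 to 145 and 125 to 150. The C3 to B6 fold in pools 1, 2 and 3 was 0.224, 0.325 and 0.991 in females and 0.290, 0.367 and 1.07 in males. Without pool 3, H2-D1 was called lower in C3, with a log2 fold change of -2.0 (adjusted p = 9.6e-07) in females and -1.60 (adjusted p = 2.2e-06) in males. Within pool 3 alone it was -0.03 (adjusted p = 0.888) and 0.07 (adjusted p = 0.796). The difference in strain effect between pools 3 and 1 was 2.01 on the log2 scale (SE 0.14, adjusted p = 9.4e-07), and H2-D1 was among 10 of 13704 genes (0.0730%) called in that test. The other 9 were Cox7a2l, Rpl29, Wdr83os, Naa20, Ppdpf, Rpl21, D2hgdh, Med8 and Hmgn2. What differs between the pools was not tested, and the labels give only the pool.

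B2m also followed the pool, but in both strains alike. In pool 1 it measured 4880 to 6302 normalized CPM in B6 and 4230 to 4764 in C3. In pool 2 it measured 3175 to 3225 and 2465 to 3058, and in pool 3 it measured 1227 to 1335 and 1040 to 1225. No 2 pools overlapped within a strain. Pool 3 against pool 1 gave a log2 fold change of -2.14 (SE 0.09, adjusted p = 2.8e-11) in B6 and -2.01 (SE 0.10, adjusted p = 2.9e-10) in C3. The ratio of B2m TPM to summed heavy chain TPM was 3.11 ± 0.407 in pool 1 (SD, n = 8), 1.56 ± 0.187 in pool 2 (n = 5) and 0.698 ± 0.0541 in pool 3 (n = 7), so a light to heavy chain ratio cannot be read from these libraries without their pool.

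Of the 9 genes tested, 2 were called between pools 3 and 1 in B6, where 16.9% of all genes were called, and 4 in C3, where 14.5% were. H2-T23 was higher in pool 3 in both strains, by 0.75 (SE 0.08, adjusted p = 7.7e-07) in B6 and 0.86 (SE 0.09, adjusted p = 5.7e-07) in C3 on the log2 scale. H2-Q2 was higher in pool 3 in C3, by 1.75 (SE 0.23, adjusted p = 1.2e-05), with 2.13 to 3.51 normalized CPM in pool 1, 3.46 to 4.41 in pool 2 and 7.88 to 9.50 in pool 3. H2-K1, H2-Q1, H2-Q4, H2-Q10 and H2-M3 were called in neither strain. Of these, H2-M3 was higher in pool 3 by 0.71 (SE 0.16, adjusted p = 0.00165) in B6 and 0.74 (SE 0.18, adjusted p = 0.00278) in C3. The model fitted pool as a term, which removes a shift that is alike in all groups. It does not remove a strain-dependent shift, such as that of H2-D1. For H2-Q2 the difference in strain effect between pools 3 and 1 was 1.84 by edgeR (SE 0.58, adjusted p = 0.668). It was not called, and its B6 side rests on 10 or fewer counts per library. For H2-Q4 that difference was -0.66 (SE 0.21, adjusted p = 0.672), also not called.

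**Figure D5:**
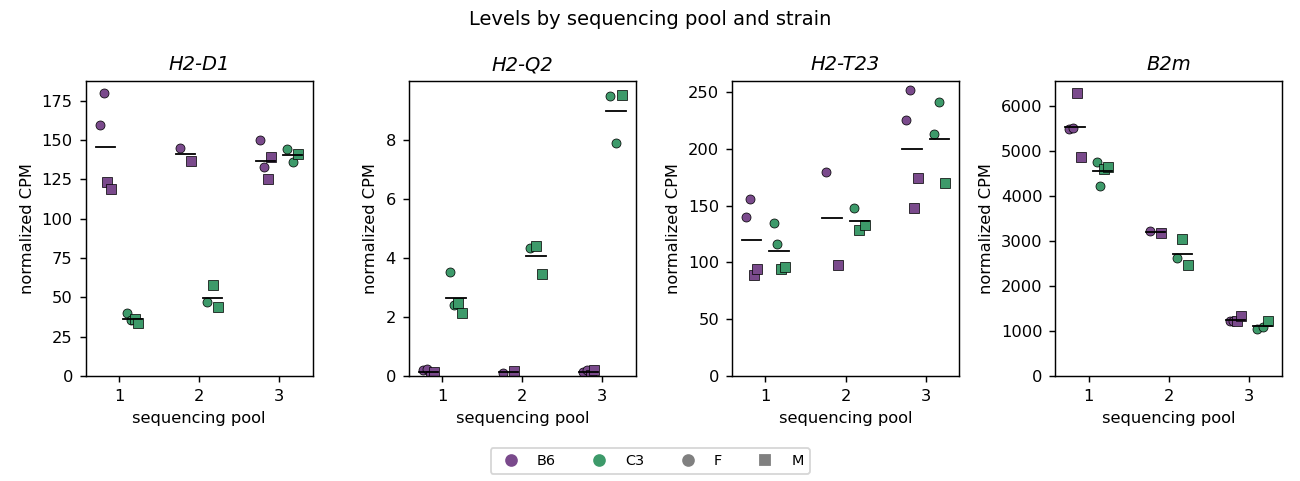
Normalized CPM (y axes from 0) of H2-D1, H2-Q2, H2-T23 and B2m by sequencing pool and strain, with 1 point per liver (circles F, squares M) and a line at each mean. In H2-D1 the strains separate in pools 1 and 2 and coincide in pool 3, and B2m falls from pool 1 to pool 3 in both strains.

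To ask whether class I levels differ by sex, females were set against males within each strain. In B6, 1 of 9 genes was called by edgeR, H2-T23, which was higher in females, and none was lower. DESeq2 called 2 there, H2-T23 and H2-Q4. Of all genes, 3.23% were called higher in B6 females and 3.12% lower. In C3 none of the 9 was called by edgeR, where 4.11% of all genes were called higher and 2.79% lower. In C3 DESeq2 also called 0. At an edgeR adjusted p under 0.05 without a fold threshold, 2 of the 9 passed there, H2-Q1 and H2-T23, beside 5479 of all 13704 genes.

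H2-T23 measured 225, 251, 180, 140 and 156 normalized CPM in B6 females and 97.5, 88.5, 148, 174 and 94.4 in B6 males. The groups overlapped across pools, but within each pool the female mean was the higher, by 1.62-fold, 1.85-fold and 1.48-fold in pools 1, 2 and 3. The log2 fold change was 0.68 (SE 0.07, adjusted p = 1.0e-06). It did not pass without the pool term (0.66, adjusted p = 0.071) or in pool 3 alone (0.57, adjusted p = 0.0533). C3 females measured 148, 213, 241, 134 and 116 and C3 males 129, 93.9, 95.7, 170 and 133, a log2 fold change of 0.34 (SE 0.07, adjusted p = 0.00173).

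H2-Q10 ran the other way in B6. Each B6 female was below each B6 male, with a log2 fold change of -0.39 (SE 0.07, adjusted p = 1.8e-04), under the threshold on size. In C3 it was -0.05 (SE 0.07, adjusted p = 0.594). H2-Q4 was higher in each B6 female than in each B6 male, by 0.72 (SE 0.18, adjusted p = 0.00425) on the log2 scale. It was not called by edgeR, but it was by DESeq2 (0.71, adjusted p = 3.2e-04), with pools 1 and 2 alone (0.99, adjusted p = 3.6e-04), with strain-by-pool terms (0.73, adjusted p = 4.5e-04) and without B6 male replicate 4 (0.89, adjusted p = 4.6e-04). In C3 the H2-Q4 groups overlapped, at 0.35 (SE 0.17, adjusted p = 0.106). H2-Q1 was higher in each C3 female than in each C3 male, at 1.10 (SE 0.24, adjusted p = 0.00199), while in B6 the groups overlapped at 0.73 (SE 0.28, adjusted p = 0.0473).

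The remaining genes showed smaller or less certain sex differences. For H2-K1 the log2 fold change was 0.22 (SE 0.09, adjusted p = 0.0582) in B6 and 0.11 (SE 0.09, adjusted p = 0.342) in C3, and for H2-M3 it was 0.57 (SE 0.14, adjusted p = 0.00425) and 0.37 (SE 0.15, adjusted p = 0.0514). For H2-D1 it was 0.30 (SE 0.30, adjusted p = 0.473) and 0.18 (SE 0.31, adjusted p = 0.668), and for H2-Q2 0.69 (SE 0.58, adjusted p = 0.380) and 0.16 (SE 0.24, adjusted p = 0.623). B2m gave -0.03 (SE 0.07, adjusted p = 0.786) and -0.09 (SE 0.07, adjusted p = 0.378).

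The sex-by-strain interaction asked whether these differences were unequal between the strains. None of the 9 genes was called by edgeR or by DESeq2, and 0.401% of all genes were called by edgeR. The smallest adjusted p were those of H2-Q10 (0.34, SE 0.09, adjusted p = 0.0524) and H2-T23 (-0.34, SE 0.10, adjusted p = 0.0800). The sex difference of H2-T23, H2-Q4, H2-Q10 or H2-Q1 was thus not shown to be unequal between B6 and C3.

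The summed levels of liver cell markers varied between the groups, while fewer single markers were called. The summed level of 7 Kupffer cell markers, the resident macrophages of the liver, ran from 404 to 543 TPM in females and 247 to 377 in males of B6, and from 272 to 402 and 171 to 256 in those of C3. Of these 7, 4 were called lower in C3 among females and 3 among males, beside 4.77% and 5.55% of all genes. Vsig4 was called higher in females of both strains. The summed level of 10 leukocyte markers ran from 13.0 to 17.04, 9.60 to 15.1, 7.73 to 12.7 and 6.61 to 8.35 TPM in the same order. Of the 9 leukocyte markers tested, Klrb1c was called lower in C3 among females, and Klrb1c, Ptprc and Flt3 among males. Between the sexes, Cd4 was called lower in females of B6 (-2.0, SE 0.19, adjusted p = 2.5e-07) and of C3 (-2.56, SE 0.19, adjusted p = 1.2e-08), while Ptprc was called higher in C3 females. That of 6 sinusoidal endothelial markers ran from 255 to 320, 197 to 229, 220 to 278 and 180 to 222 TPM, and 1 of them, Lyve1, was called, lower in C3 among females. The hepatocyte marker sum averaged 120455 TPM in females and 95413 in males of B6, and 159845 and 127811 in those of C3, and Apoa1 was called higher in C3 in both sexes. The median log2 fold change of the 8 hepatocyte markers in females against males ran the other way, at -0.18 in B6 and -0.28 in C3. None of the 8 was called by sex. The part of these cells in the H2-K1, H2-Q4 and H2-T23 differences was not tested.

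Other genes of the region and pathway were read from lists chosen with results of these data known. Over all genes, 4.63% were called higher and 4.77% lower in C3 among females, and 4.09% and 5.55% among males. Between the sexes, 3.23% were called higher and 3.12% lower in females of B6, and 4.11% and 2.79% in those of C3. Of 29 other class I heavy chain genes, 25 were in the table and 5 had enough counts to be tested. In each sex 3 of them, Gm8909, H2-Bl and H2-T24, were called higher in C3 and 1, H2-Q5, lower. Gm8909 held at most 2 counts in any B6 liver and 23 to 73 in C3, so that against 3 counts per library the C3 level was at least 16.8-fold higher among females and 15.9-fold among males. H2-Bl averaged 0.0904 and 0.0890 normalized CPM in B6 females and males and 1.37 and 2.27 in C3. H2-Q5 averaged 2.59 and 1.35 in B6 and 0.0893 and 0.123 in C3. H2-T24 was the most abundant of them, at 8.53 ± 0.559 (SD, n = 5) and 4.72 ± 0.430 in females and males of B6, and 14.6 ± 1.72 and 10.9 ± 1.35 in those of C3. H2-T24 and H2-T10 were also called higher in B6 females than males, by 0.85 (SE 0.10, adjusted p = 5.7e-06) and 1.12 (SE 0.21, adjusted p = 6.1e-04) on the log2 scale.

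Genes that cut and load peptides were read in the same way. Of 14 genes for antigen processing and peptide loading, only Tap2, a subunit of the peptide transporter, was called between strains. It was higher in C3, by 0.52 (SE 0.09, adjusted p = 1.0e-04) in females and 0.66 (SE 0.09, adjusted p = 1.1e-05) in males on the log2 scale, and in females it was not called in several alternative fits. The list medians were -0.15 and -0.05. Between the sexes, Psmb10, an immunoproteasome subunit, and Tapbp, or tapasin, which helps peptides bind, were called higher in B6 females, by 0.77 (SE 0.11, adjusted p = 4.4e-05) and 0.63 (SE 0.07, adjusted p = 4.3e-06). None of the 14 was called by sex in C3.

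Of 10 regulators of class I transcription, Rfxank, a subunit of the RFX complex that binds MHC promoters, was called lower in C3, by -0.80 (SE 0.08, adjusted p = 2.1e-07) in females and -0.75 (SE 0.08, adjusted p = 5.9e-07) in males. Irf1, an interferon-induced activator, was called higher in B6 females than males, by 0.72 (SE 0.13, adjusted p = 2.8e-04). Nlrc5, the class I transactivator, was among those not called in any comparison. The list medians by strain were -0.18 in females and 0.12 in males. Of all genes, 4.77% and 5.55% were called lower in C3 females and males, and 3.23% higher in B6 females than males.

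Promoters of class I genes are known to hold a kappaB-like element, an interferon response element and sites bound by RFX-associated factors. Since H2-K1, H2-Q4 and H2-Q1 differed between the strains in direction and size, the 220 bases before their loci, and those before H2-D1, are shown from the mm9 genome from 5′ to 3′ on the coding strand. Capitals mark matches, on either strand, to GGGNNNTCC (kappaB-like), TTTCNNTT (interferon response core) and TGACGC (X2-like).
H2-K1, chr17:34137279-34137498, minus strand: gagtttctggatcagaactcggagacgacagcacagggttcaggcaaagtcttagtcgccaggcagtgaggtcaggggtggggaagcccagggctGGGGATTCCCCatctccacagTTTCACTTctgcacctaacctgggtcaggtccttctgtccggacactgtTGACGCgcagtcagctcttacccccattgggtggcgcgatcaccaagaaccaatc
H2-D1, chr17:35399819-35400038, plus strand: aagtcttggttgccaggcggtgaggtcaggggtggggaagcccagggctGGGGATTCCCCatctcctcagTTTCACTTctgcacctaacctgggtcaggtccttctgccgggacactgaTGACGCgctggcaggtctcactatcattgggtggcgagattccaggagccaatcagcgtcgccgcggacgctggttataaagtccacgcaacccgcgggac
H2-Q4, chr17:35516342-35516561, plus strand: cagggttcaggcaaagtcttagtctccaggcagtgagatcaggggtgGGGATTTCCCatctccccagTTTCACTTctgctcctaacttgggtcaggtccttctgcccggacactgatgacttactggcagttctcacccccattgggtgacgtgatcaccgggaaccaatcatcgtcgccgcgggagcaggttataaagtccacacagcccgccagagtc
H2-Q1, chr17:35457283-35457502, plus strand: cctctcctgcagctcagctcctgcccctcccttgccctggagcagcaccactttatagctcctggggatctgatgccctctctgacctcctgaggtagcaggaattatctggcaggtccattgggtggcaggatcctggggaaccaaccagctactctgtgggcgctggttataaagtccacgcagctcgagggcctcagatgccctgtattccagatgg

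In the 250 bases before the locus, H2-K1 and H2-D1 held all 3 motifs. H2-Q4 and H2-Q10 held GGGNNNTCC and TTTCNNTT, H2-M3 held TTTCNNTT and TGACGC, and H2-T23, H2-Q2, H2-T22 and B2m held TTTCNNTT alone of the 3. H2-Q1 held none of these letters in this window, and only CCAAT. In H2-Q2 the TTTCNNTT match overlapped CCAAT. Of the 25280 promoters of the same length, 15.8% held GGGNNNTCC, 20.3% TTTCNNTT, 6.9% TGACGC and 35.6% CCAAT. These are the reference sequences, and the C3H sequences were not analysed here.

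After additive terms for group and pool were removed, the remaining variation across the 20 livers was compared between genes. These correlations of log2 CPM are a description over libraries that share depth and handling. The nearest genes were picked as the highest among the 13704 tested. How high r would run by chance in such a search was not tested. The 5 genes nearest to H2-K1 were AW112010 (Pearson's r 0.86), Psmb8 (0.85), Abr (0.81), Igtp (0.81) and Tapbp (0.80), of which Psmb8 and Tapbp serve class I peptide supply and Igtp is an interferon-induced GTPase. For H2-D1 the nearest genes were Rpl29, Naa20, Rpl21, Wdr83os and Ppdpf. Each was called with H2-D1 in the strain-by-pool test, with a difference of the same sign that was not removed here. Their likeness thus includes that difference, although the levels behind it moved differently, as given above. Nearest to H2-T23 were Elmo1 (0.86) and Arhgef2 (0.85), to H2-Q10 Paox and B3gnt5 (0.86 each), to H2-Q1 Bckdk (0.84), to H2-Q4 Kifc1 (0.86), and to B2m Dus2 (0.83). Among the 9 genes themselves the highest r was that of H2-K1 with H2-Q4 (0.78).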

How the data were processed

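The authors trimmed reads with Cutadapt 1.9.1, aligned pairs to mm9 with STAR 2.5.1b and used featureCounts (Subread 1.5.0-p1) with RefSeq gene models, by strand and without multimapping or multi-overlapping pairs. They deposited raw counts per gene, without normalization, and TPM values. The headers of the symbol and identifier columns are exchanged and were read by content. Here counts were fitted in R 4.3.3 with edgeR 4.0.16 (filterByExpr on the 4 groups, TMM, quasi-likelihood test of group and pool, all 20 libraries), with Benjamini-Hochberg adjustment across 13704 genes. SE is the log2 fold change over the root of the F statistic. Alternatives used DESeq2 1.42.0, limma 3.58.1 on log2(TPM + 1) or log2(TPM + 0.1), other normalizations, filters and thresholds, a replicate block, and 1 liver left out. The comparisons by pool were added after the data were seen. The fit was tested on simulated data. Members, gene lists and motifs were chosen with earlier results of these data known. All 10 members are named, and of each other list up to 6 genes called alike in both comparisons of a pair; Irf1, Psmb10, Tapbp, H2-T10, Nlrc5 and single cell type markers are named after their values were seen. Sequences come from the NCBIM37 (mm9) genome at the loci of the files and GENCODE vM1 exons. Counting limits cover counting error only.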

Additional observations from a re-analysis of the deposited data

Results flagged for a closer look

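In C3 males, H2-D1 in replicate 4 measured 141 normalized CPM and stood apart from the other 4 livers, of which the nearest was at 57.6, by a gap of 0.78 of the group's range. It was the only C3 male of pool 3. The C3 to B6 log2 difference of H2-D1 was higher in pool 3 than in pool 1 by 2.01, by the interaction test given above. H2-T22 in B6 female replicate 2, at 0.0402 normalized CPM (2 counts), stood apart from 4 livers at 0. Over the 37 groups tested for a liver that stands apart, chance flags about 1 in 20.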

How the results depend on the processing

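The 4 strain calls (H2-K1, H2-Q1, H2-Q2, H2-Q4) kept their direction in every alternative and their call in all but the pool subsets. With pools 1 and 2 alone, H2-K1 lost its call in both sexes and H2-D1 gained one, and in pool 3 alone, with 7 libraries, 1 gene (H2-Q2) was called in each sex. At an adjusted p under 0.05 without a fold threshold, 7 of the 9 members were called between strains in females, 5 between the sexes in B6 and 2 in C3. Of all 13704 genes, 4515, 4742 and 5479 were called in the same order. For the sexes in B6 (1 call), DESeq2, limma on log2(TPM + 1), pools 1 and 2 alone and strain-by-pool terms gave 2, the fit without pool and pool 3 alone gave 0, and leaving out a liver gave 1 to 2 (H2-Q4 joined without B6 male replicate 4). In C3 a fit of the 2 groups alone called 1, H2-Q1. With strain-by-pool terms H2-D1 was called, at -1.27 and -1.03. Apart from pool subsets, the causes were not tested.

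Some values that were not called changed sign. H2-M3 between strains in males was 0.03 without B6 male replicate 4 (-0.14 to 0.03 over the livers left out) or without pool 3, and H2-D1 in males, at -1.09 over all pools, was 0.07 in pool 3 alone. B2m by sex in B6 was 0.04 with upper-quartile factors, 0.09 with limma, 0.02 without B6 male replicate 2 (-0.07 to 0.02 over the livers left out) and 0.00 without pool 3, and in C3 0.03 with limma. H2-Q10 by sex in C3 was 0.02 with upper-quartile factors and 0.06 with limma, H2-D1 -0.03 without pool 3, and H2-Q2 -0.12 in pool 3 alone. For the interaction H2-D1 was 0.11 without the pool term and between 0.01 and 0.30 without B6 female replicate 5, C3 female replicates 4 or 5 or C3 male replicate 4 (0.07, 0.01, 0.03 and 0.30), with -0.31 as the lowest value over the livers left out, and H2-Q2, at -0.53 by edgeR, was 0.16 with limma on log2(TPM + 1).

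Counts over all genes moved by over 1.5 times as follows. Without the pool term they were 815 for strain in females, 421 and 482 for sex in B6 and C3, and 20 for the interaction. Pools 1 and 2 alone gave 626, 786, 380, 428 and 4 for the strain, sex and interaction tests in order, pool 3 alone 142, 73, 65, 48 and 0, and no fold threshold 4515, 4733, 4742, 5479 and 405. DESeq2 called 181 in the interaction, 32 to 34 were called there without B6 male replicate 1, C3 female replicate 1 or C3 male replicate 4, and 625 by sex in C3 with those groups alone.

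Replicate numbers did not pair the livers: 7 of 20 same-numbered pairs deviated together (r over 0.1). With them as a replicate block, 4 and 4 members were called between strains, 1 and 0 between sexes and 0 in the interaction.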

Other observations

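Some class I-like genes outside the H2 region were called between the strains or the sexes. Of 9 listed genes 8 were tested, and Cd1d2, which presents lipids, and Mr1, which presents vitamin B metabolites, were called higher in C3 in both sexes. Cd1d2 measured 0.428 ± 0.136 normalized CPM in B6 females and 4.05 ± 1.10 in C3 females (SD, n = 5), a log2 fold change of 3.22 (SE 0.18, edgeR adjusted p = 1.2e-10), and 0.275 ± 0.131 and 1.10 ± 0.191 in males (2.08, SE 0.22, adjusted p = 7.8e-07). Mr1 measured 6.45 ± 2.38 and 20.0 ± 4.52 in females and 5.66 ± 1.68 and 13.1 ± 2.34 in males. Hfe, which regulates iron uptake, was lower in C3, by -0.64 (SE 0.06, adjusted p = 1.2e-07) in females and -0.50 (SE 0.06, adjusted p = 3.6e-06) in males, the latter at the threshold. Cd1d1 was called lower in C3 among males alone (-0.56, SE 0.06, adjusted p = 9.6e-07). Over all genes, 4.63% and 4.09% were called higher in C3 females and males, and 4.77% and 5.55% lower. Between the sexes, Cd1d1 (0.57), Cd1d2 (1.78) and Mr1 (0.72) were called higher in C3 females, beside 4.11% of all genes. None of the 8 was called by sex in B6.

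Of 16 interferon-stimulated genes, 4 were called higher in females in each strain, and none lower. Of all genes, 3.23% were called higher in B6 females and 4.11% in C3 females. Gbp3, an interferon-induced GTPase, and Oas1a, which senses double-stranded RNA, were called in both. Gbp3 measured 22.97 ± 5.19 normalized CPM in B6 females and 8.29 ± 1.97 in B6 males, and 20.4 ± 4.81 and 6.14 ± 1.95 in C3. Oas1a was higher by 0.98 (SE 0.16, adjusted p = 1.4e-04) in B6 and 0.86 (SE 0.16, adjusted p = 5.2e-04) in C3, a call that did not hold in most fits that left out a C3 liver. Of 7 MHC class II genes, H2-DMb1, which helps load class II peptides, was called lower in C3 in both sexes (-2.20, SE 0.30, and -1.72, SE 0.32). Of all genes, 4.77% were called lower in C3 among females and 5.55% among males. The median log2 fold change of the 7 genes was -1.39 in females and -1.15 in males, beside 0.02 and 0.01 for all genes. In males the H2-DMb1 call was lost without B6 replicate 1 or 4 or without C3 replicate 2, 3, 4 or 5 (adjusted p from 0.00103 to 0.00208), and in both sexes it was lost within the pool subsets.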
